A study of Homo sapiens with 14 samples.

Results

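ATF4 is a transcription factor whose own messenger RNA is translated more when kinases phosphorylate the initiation factor eIF2. Among them, GCN2 does so when cells lack amino acids and PERK under stress of the endoplasmic reticulum. ATF4 pairs with CEBP proteins and switches on genes that make, import and use amino acids: the enzymes of serine, asparagine, proline and cysteine synthesis, the cystine and leucine transporters, and the enzymes that charge tRNA. In liver it is known for adjusting metabolism when dietary amino acids run short.

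The 36 genes described here are reported members of that response, listed by gene symbol, with the list made when earlier results of these data were known. Where a gene had several probe sets, the brightest on average was read. They comprise 12 regulators and stress-response genes, 12 enzymes, 3 transporters and 9 genes of tRNA charging and export. In the platform annotation given, 34 of them had a probe set of their own, out of 19775 genes with one. GPT2 had none listed, and the probe sets of MARS1, the methionyl-tRNA synthetase, carried a second symbol. VLDLR, a lipoprotein receptor and stress-induced member, had a mean of 5.45 on the log2 scale, below the minimum of 6.19 set for testing (the median of all probe sets). The other 33 were among the 13128 genes tested.

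The cells were HepG2, a human line grown from a liver tumour, transfected either with miR-124, a microRNA abundant in neurons, or with a negative control whose sequence the labels do not give. Each transfection was sampled at 4, 8, 16, 24, 32, 72 and 120 h with 1 array per transfection and time, 14 arrays in all. Values are log2 expression values made with RMA, which gives all arrays nearly the same distribution, so a change in total messenger RNA per cell is not visible. In such bulk samples, fewer cells that express a gene and less RNA per cell cannot be told apart.

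Array facts that touch the results are these. Correlations between arrays ran from 0.959 to 0.998 and no 2 arrays were identical. All 9 measured hepatocyte markers, albumin and its like, lay above the minimum on average, and their mean level ran from 12.9 to 13.4 over the control arrays and from 12.9 to 13.2 over the miR-124 arrays. Markers of other cells stayed lower on average: 7.19 to 7.74 for blood cells, 6.43 to 6.72 for fibroblasts and endothelium, and 7.04 to 7.35 for neurons. Of those measured, 3 of 6 blood, 7 of 10 fibroblast and endothelial and 5 of 8 neuron markers lay above the minimum. Their highest gene means were 12.6, 9.30 and 11.9, where the hepatocyte markers ran from 10.9 to 13.9. Below the minimum were PTPRC, MS4A1, CD14, COL3A1, LUM, CDH5, MAP2, GAP43 and NEFL. The excess of the 3′ over the 5′ probe sets of ACTB, a sign of RNA length, was larger with miR-124 in 7 of 7 time pairs. It read 0.41 on the miR-124 array of 120 h against 0.10 on its control, and 0.36 against 0.24 for the pair of 72 h. The same measure for GAPDH was larger with miR-124 in 6 of 7 pairs. In the pairs of 24, 32, 72 and 120 h the arms differed by 0.29, 0.14, 0.12 and 0.31 for ACTB. For GAPDH these pairs differed by 0.09, 0.06, 0.16 and 0.17. The members' median ratios in the same pairs were -0.01, 0.02, -0.37 and -0.46. The part of RNA quality in the late results was not tested.

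ATF4 binds composite elements in the promoters of its targets, of which the one in ASNS is the textbook case. Searching 250 bases before to 50 bases after each RefSeq transcript start (GRCh38.p14) for TGATGNAA on both strands found it in 10 of the 30 members with a window and in 4.46% of all 27305 genes with one. The 10 were ATF3, CHAC1, CEBPG, ASNS, SLC3A2, AARS1, GARS1, IARS1, MARS1 and NARS1. Of these, 3 stretches upstream of the start are shown because their genes behaved differently on the arrays, with the match in capitals and 20 bases on either side.
ASNS, chr7:97872449-97872496, minus strand, the strand of the gene: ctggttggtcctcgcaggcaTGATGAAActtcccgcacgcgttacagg
CHAC1, chr15:40953242-40953289, minus strand, opposite to the gene: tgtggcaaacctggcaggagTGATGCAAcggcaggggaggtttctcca
AARS1, chr16:70289666-70289713, plus strand, opposite to the gene: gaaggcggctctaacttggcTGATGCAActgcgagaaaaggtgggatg
ASNS, with its match at position -68 from the start, was lower with miR-124 at 72 and 120 h, whereas the same comparison made no call for CHAC1 (position -209) or AARS1 (position -187). A match describes the letters of the window and is not a measured binding site.

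The comparison of miR-124 with control asks how the response behaves after transfection. It was made with limma on the log2 ratio of the arrays of each time, over all 7 times and in an early (4 and 8 h), a middle (16, 24 and 32 h) and a late window (72 and 120 h). A gene is said to be called where limma's Benjamini-Hochberg adjusted p over all genes tested was under 0.05. Nothing in the labels says that the arrays came from separate cultures, and each time has 1 array per transfection, so the p-values and the standard errors given after ± measure only the spread of the effect between times.

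As a group the ATF4 response genes had ratios near 0 up to 32 h and a median below 0 at 72 and 120 h. The median was not below 0 in every role at both times. The median log2 ratio of the 33 members lay between -0.04 and 0.02 at 4, 8, 16, 24 and 32 h, then moved to -0.37 (72 h) and -0.46 (120 h), while that of all genes tested was 0.02 and -0.01 at the last 2 times. In the late window 18 members were called lower and 2 higher, where 12.6% of all genes were called lower and 16.5% higher. Their median late effect was -0.42, with 25 values below 0, against -0.01 over all genes. The effects ran from -1.80 for CTH to 0.64 for SESN2. Of the members with a promoter window, 3 of 9 tested with the TGATGNAA match and 12 of 19 without it were called lower late. Of the markers of other cells, 1 of 3 blood, 2 of 7 fibroblast and endothelial and 1 of 5 neuron markers tested were called higher late (CD3D, ACTA2, PECAM1 and ENO2) and none lower, and 1 of 9 hepatocyte markers, FGB, was called lower. Their part in the result was not tested.

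Over all 7 times limma called none of the 33 (0.00762% of all genes were called lower and 0% higher). At an unadjusted p under 0.05 were 13 members, and 3410 of all 13128 genes. None was called in the early window (0% of all genes in either direction), with 1 member and 163 of all 13128 genes at an unadjusted p under 0.05. In the middle window 1 member, PYCR1, was called lower and none higher (4.36% and 3.47% of all genes). There 9 members, and 2715 of all 13128 genes, had an unadjusted p under 0.05.

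**Figure D1:**
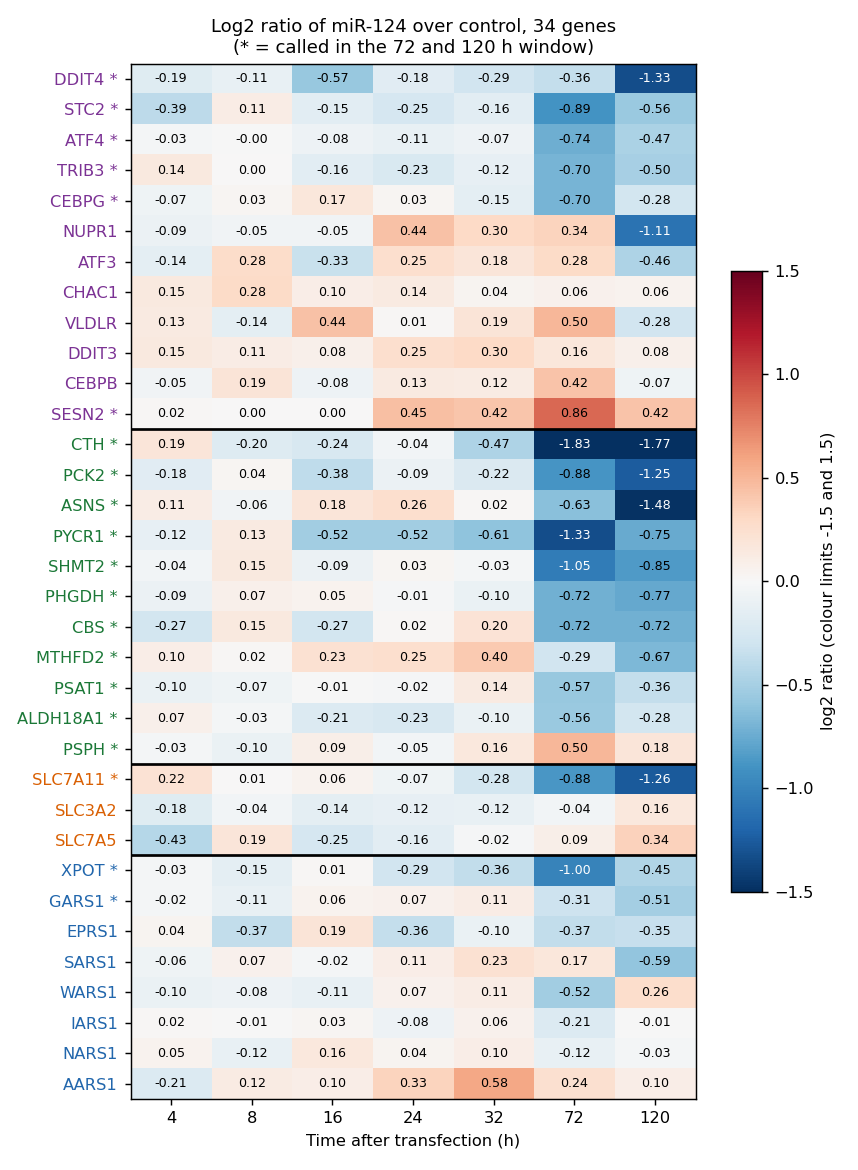
Log2 ratio of miR-124 over control for the 34 members with a probe set (rows, grouped by role) at 7 times in hours (columns), with blue for lower and red for higher with miR-124. Most enzymes turn blue at 72 and 120 h, where CTH reaches -1.83 and -1.77, while SESN2 is red at 0.86 and 0.42.

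By role, the late calls lay mostly among the enzymes. Of 11 enzymes tested, 10 were called lower and 1 higher, with a median late effect of -0.74. Of 11 regulators, 5 were called lower and 1 higher, with a median of -0.38. The 8 genes of tRNA charging and export had 2 called lower, with a median of -0.17, and the 3 transporters had 1, with a median of 0.06. By single times, the median ratio of the regulators was 0.06 at 72 h, with 5 of 11 below 0, and -0.46 at 120 h, with 8 below. At these times it was -0.72 and -0.75 for the enzymes and -0.26 and -0.19 for the tRNA genes. For the transporters it was -0.04 and 0.16. Whether the roles differ from one another was not tested.

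**Figure D2:**
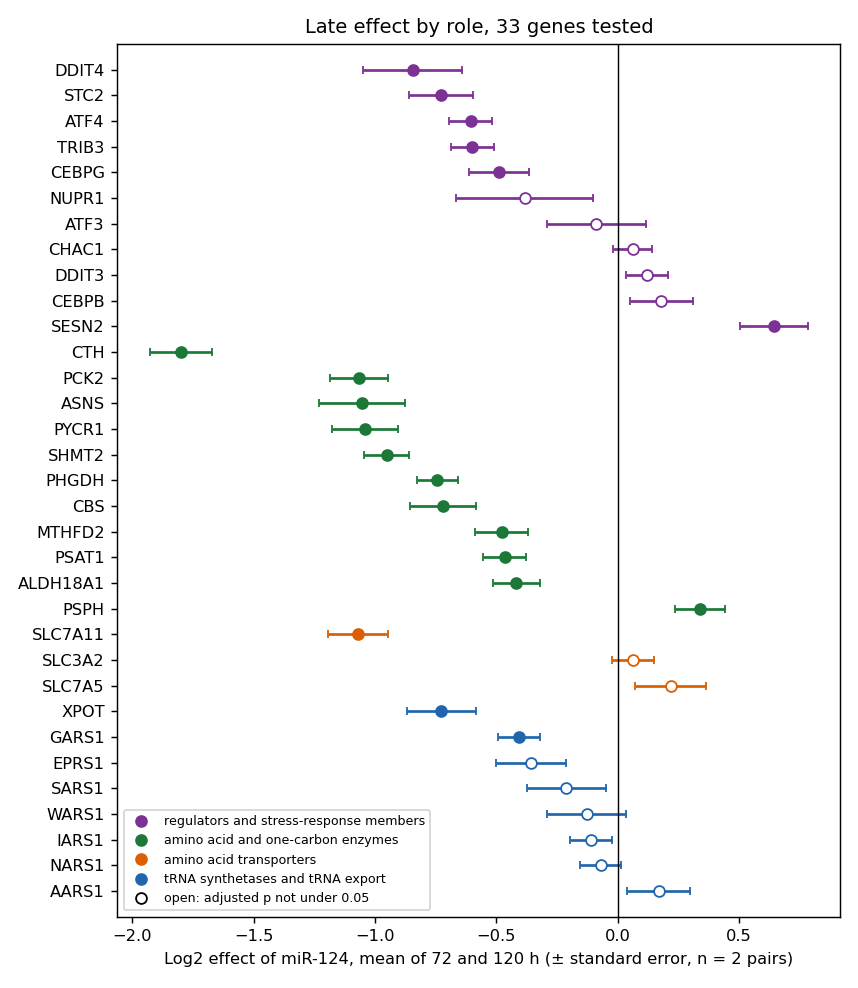
Late log2 effect of miR-124, the mean of 72 and 120 h, for 33 members by role, with bars of 1 standard error from limma (n = 2 pairs) and filled points where the adjusted p was under 0.05. The enzymes lie to the left of 0 except PSPH at 0.34, and the tRNA genes range from XPOT at -0.73 to AARS1 at 0.17.

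ATF4 itself was among the regulators called lower. From 4 to 120 h its control values were 11.82, 11.75, 11.51, 11.51, 11.51, 11.60 and 11.97. With miR-124 they were 11.78, 11.75, 11.43, 11.40, 11.43, 10.86 and 11.49. The arms overlapped at 4 and 8 h. From 16 h on the miR-124 arrays lay below every control array, whose lowest value was 11.51, though the ratios up to 32 h were small, from -0.11 to -0.0035. The miR-124 array of 72 h stood below every other array of both arms. Late in the course ATF4 was changed by -0.61 ± 0.09, or 1.52-fold lower (limma adjusted p = 0.00231).

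CEBPG, a CEBP protein that dimerises with ATF4, was at 8.31 and 8.59 on the late miR-124 arrays and at 9.01 and 8.87 on the control arrays of those times. Those miR-124 arrays were below all 7 control arrays, of which the lowest was 8.87. CEBPG had a late effect of -0.49 ± 0.12 (limma adjusted p = 0.01996), and without the 72 h pair it was -0.28 and no longer called (adjusted p = 0.161).

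TRIB3, a pseudokinase that ATF4 induces and that damps ATF4 in turn, increased with time in the control. Its level there went from 10.42 at 4 h to 11.02 at 72 h and 11.20 at 120 h, while the miR-124 arm stayed between 10.56 and 10.69 up to 32 h and was 10.32 and 10.71 at the last times. The slope with time was 0.14 ± 0.02 per doubling in the control (limma adjusted p = 0.0119), and the slope with miR-124 was lower than that by 0.15 ± 0.03 (adjusted p = 0.0307). Its late effect was -0.60 ± 0.09 (adjusted p = 0.00247), and that of a second, dimmer probe set was -0.99.

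DDIT4, an inhibitor of mTORC1, and STC2, a secreted stress hormone, were also called lower. DDIT4 in the control ran from 8.98 to 9.50 before the last time and was 10.24 at 120 h, while all 7 miR-124 arrays lay between 8.62 and 9.17. Its late effect of -0.85 ± 0.20 (limma adjusted p = 0.0169) rested on that 120 h pair, whose ratio was -1.33, and was -0.36 without it (adjusted p = 0.0840). STC2 read 7.91 and 8.32 on the late miR-124 arrays against 8.81 and 8.87 on their controls, a late effect of -0.73 ± 0.13 (adjusted p = 0.00533).

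SESN2, a leucine-binding inhibitor of mTORC1, was the one regulator called higher. Both arms agreed within 0.02 at 4, 8 and 16 h. From 24 h on the miR-124 arm read 9.06, 9.15, 9.20 and 9.02, above every control array, whose highest value was 8.73. This gave a late effect of 0.64 ± 0.14 (limma adjusted p = 0.0115), and without the 72 h pair, where the control was at its lowest of 8.34, it was 0.42 and not called (adjusted p = 0.0888).

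The other 5 regulators tested made no call in the late window. CHAC1, which degrades glutathione, had the smallest effect, 0.06 ± 0.08 (limma adjusted p = 0.631). Its miR-124 arrays ran from 7.36 to 7.55 with a median of 7.42 and its control arrays from 7.26 to 7.38 with a median of 7.33, so the ranges of the arms overlapped. Within the pairs of a time, however, CHAC1 was higher with miR-124 in 7 of 7, by 0.04 to 0.28, with an effect over all times of 0.12 ± 0.05 (adjusted p = 0.149). DDIT3, the pro-apoptotic factor CHOP, had a late effect of 0.12 ± 0.09 and CEBPB, another CEBP protein, of 0.18 ± 0.13.

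DDIT3 and CEBPB increased with time in both arms. The slope per doubling of time for CEBPB was 0.20 ± 0.04 in the control and 0.23 ± 0.04 with miR-124 (limma adjusted p = 0.0294 and 0.00778). For DDIT3 it was 0.14 ± 0.03 in each arm (adjusted p = 0.0324 and 0.0183). ATF3, an early stress factor, and NUPR1, a stress-induced chromatin protein, had ratios of opposite sign at the last times: 0.28 and -0.46 for ATF3, and 0.34 and -1.11 for NUPR1. Their late effects, -0.09 ± 0.20 and -0.38 ± 0.28, were not called, and changed sign when the 120 h pair was left out. VLDLR, which was not tested, had ratios of 0.50 and -0.28.

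Among the enzymes, the largest effect of all members was that of CTH, which makes cysteine from cystathionine. Its control level ran from 8.12 to 8.53 up to 32 h and its last values were 8.39 and 9.51. With miR-124 the values from 4 to 120 h were 8.58, 8.16, 8.29, 8.08, 7.68, 6.56 and 7.74. From 24 h on the miR-124 arrays lay below every control array. The late effect of CTH was -1.80 ± 0.13, or 3.48-fold lower (limma adjusted p = 0.00017). CTH alone was also called when a minimum change of 1.5-fold was tested. CBS, which makes cystathionine in the step before, read 8.04 and 8.55 on the late miR-124 arrays against 8.76 and 9.27 on their controls, a late effect of -0.72 ± 0.14 (adjusted p = 0.00632). The dimmest of the CBS probe sets had an effect of -0.08 (adjusted p = 0.664 over all probe sets).

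ASNS, which makes asparagine, is the standard readout of the response. Its control level was between 9.24 and 9.42 at every time up to 72 h and 11.03 at 120 h, well apart from the rest of the arm. With miR-124 it was between 9.26 and 9.61 up to 32 h, 8.78 at 72 h and 9.55 at 120 h. The miR-124 array of 120 h thus lay within the range of its own arm's earlier arrays, and the ratio of -1.48 at that time came with the high control array. The late effect was -1.05 ± 0.18, or 2.08-fold lower (limma adjusted p = 0.00398). It was -0.63, and still called, without the 120 h pair, and without time as a block the call was lost (adjusted p = 0.0581). Averaged with a second ASNS probe set, whose mean of 3.78 lay below the minimum, it was -0.55 and still called.

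The serine pathway showed members called in both directions. PHGDH, its first enzyme, read 8.59 and 8.89 on the late miR-124 arrays against 9.31 and 9.66 on their controls. The control's mean up to 32 h was 8.93 ± 0.04 (SD, n = 5 arrays). Its late effect was -0.74 ± 0.09 (limma adjusted p = 0.000823), and its slope in the control was 0.15 ± 0.03 per doubling of time (adjusted p = 0.0382). PSAT1, the second enzyme, read 11.23 and 11.68 against 11.80 and 12.04 in the control, a late effect of -0.47 ± 0.09 (adjusted p = 0.00670). A second PSAT1 probe set gave -0.80.

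PSPH, the last enzyme of the pathway, was called higher instead. Its miR-124 arrays ran from 10.28 to 10.50 with a median of 10.37, and its control arrays from 9.96 to 10.41 with a median of 10.31. The late control arrays, 9.96 and 10.16, were the 2 lowest of that arm, and the miR-124 arrays of those times read 10.46 and 10.34. The late effect of 0.34 ± 0.10 (limma adjusted p = 0.0407) was the smallest among the enzymes called, and it passed the threshold in only 5 of 15 alternatives. Without the 72 h pair it was 0.18 (adjusted p = 0.293).

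The mitochondrial one-carbon enzymes were both called lower. SHMT2, which takes a carbon unit from serine, stood between 10.99 and 11.19 in the control up to 72 h and at 11.46 at 120 h. With miR-124 it stood between 10.96 and 11.21 up to 32 h and then at 10.02 and 10.61, below every control array. The late effect was -0.95 ± 0.09, or 1.94-fold lower (limma adjusted p = 0.000477), and its other 2 probe sets gave -1.20 and -1.05. MTHFD2, the next enzyme, had ratios above 0 at each time up to 32 h, with 0.40 at 32 h, and of -0.29 and -0.67 afterwards. Its late effect was -0.48 ± 0.11 (adjusted p = 0.0131), and without the 120 h pair -0.29 (adjusted p = 0.0756). A second, dimmer MTHFD2 probe set gave -1.01 (adjusted p = 0.000416 over all probe sets). The late minus middle difference was -0.77 ± 0.14 (adjusted p = 0.0237).

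PYCR1 and ALDH18A1, which make proline from glutamate, were both called lower, and PYCR1 was the one member also called in the middle window. Its control arrays ran from 9.66 to 10.06 with a median of 9.89. With miR-124 the values were 9.66, 9.84, 9.45, 9.37, 9.05, 8.58 and 9.31 from 4 to 120 h, below the whole control range from 16 h on. The middle effect was -0.55 ± 0.11 (limma adjusted p = 0.0273) and the late effect -1.04 ± 0.14, or 2.06-fold lower (adjusted p = 0.00147). The middle call was lost when any one of the 5 times up to 32 h was left out (adjusted p = 0.0534 without 4 or 8 h, 0.0888, 0.198 and 0.215 without 16, 24 or 32 h). It was also lost without time as a block (adjusted p = 0.0745). ALDH18A1 read 9.54 and 10.13 on the late miR-124 arrays against 10.10 and 10.41 on their controls, a late effect of -0.42 ± 0.10 (adjusted p = 0.0138), which was -0.28 without the 72 h pair (adjusted p = 0.0992).

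PCK2, the mitochondrial enzyme that makes phosphoenolpyruvate, had control values between 8.70 and 8.91 up to 32 h, then 9.16 and 9.89. All 7 miR-124 arrays lay between 8.28 and 8.74, so the arms overlapped only at the lowest control array. PCK2 had a late effect of -1.07 ± 0.12, or 2.09-fold lower (limma adjusted p = 0.000731). The slope with time was lower with miR-124 by 0.23 ± 0.06 per doubling (adjusted p = 0.0497).

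**Figure D3:**
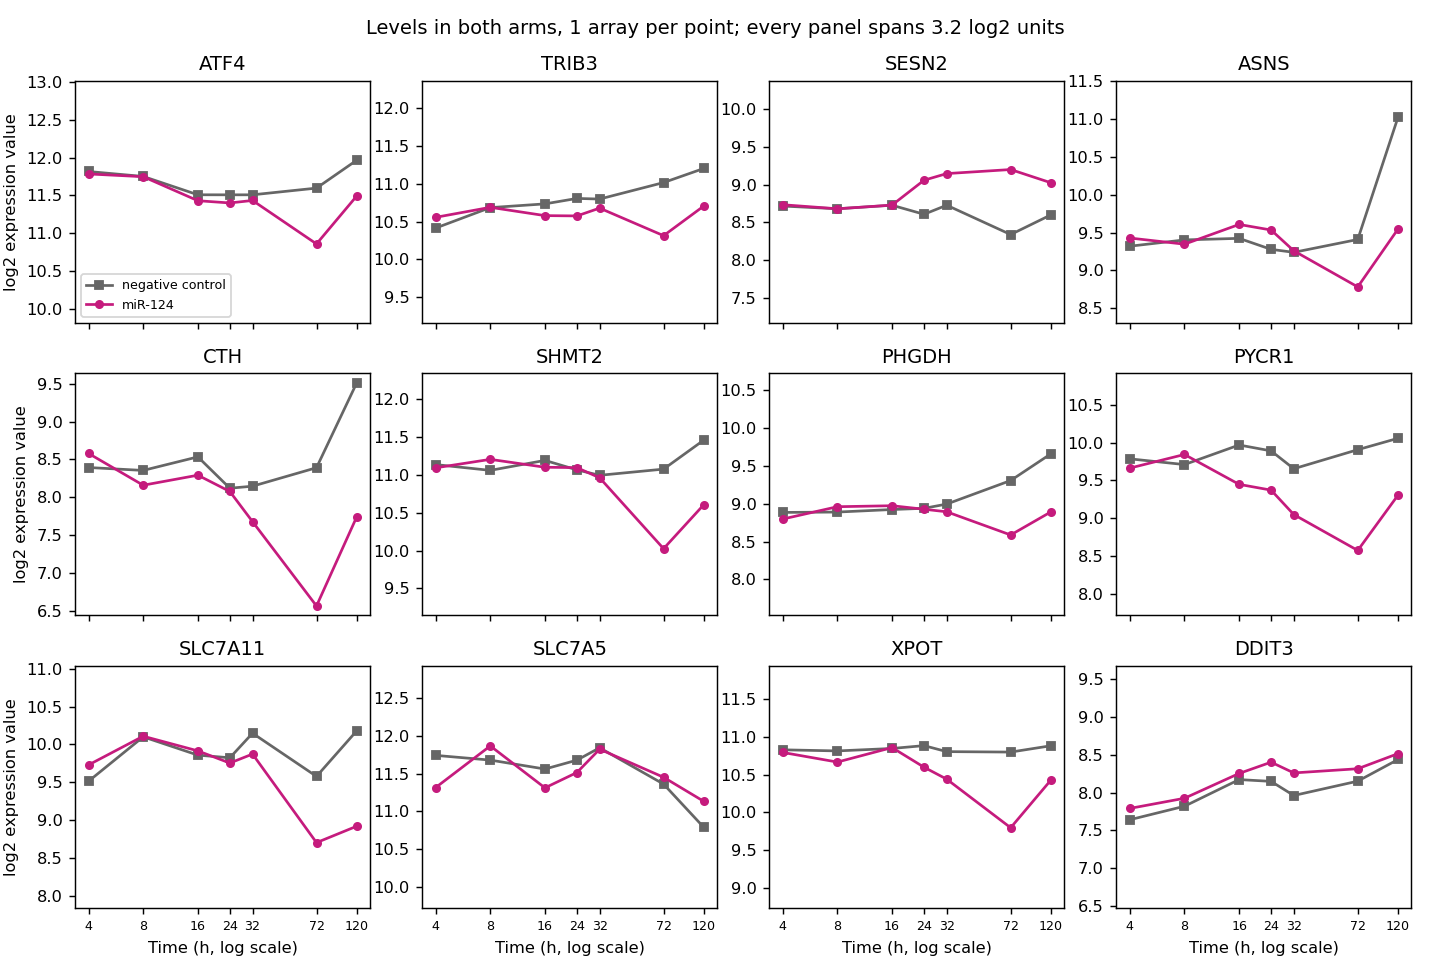
Log2 expression of 12 members in the control (grey squares) and miR-124 arm (magenta circles) against time on a log axis in hours, 1 array per point, with each panel spanning the same height. ASNS and CTH have their highest control value at 120 h, 11.03 and 9.51, and ATF4, CTH, SHMT2, PYCR1, SLC7A11 and XPOT have their lowest miR-124 value at 72 h.

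The transporters went different ways. SLC7A11, the cystine importer, was between 9.51 and 10.18 in the control at all times. With miR-124 it was 9.73, 10.11, 9.91, 9.75 and 9.87 up to 32 h, then 8.70 and 8.92, below every other array of either arm. SLC7A11 had a late effect of -1.07 ± 0.12, or 2.10-fold lower (limma adjusted p = 0.000864), and the slope with miR-124 was -0.24 ± 0.07 per doubling of time (adjusted p = 0.0497). The slopes of the arms differed by -0.29 ± 0.05 (adjusted p = 0.0152).

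SLC3A2, the heavy chain that SLC7A11 and SLC7A5 both need at the membrane, made no late call at 0.06 ± 0.09 (limma adjusted p = 0.658). Its miR-124 arrays ran from 9.74 to 10.04 with a median of 9.88 and its control arrays from 9.58 to 10.14 with a median of 10.02. SLC7A5, the leucine transporter, had a late effect of 0.22 ± 0.15 (adjusted p = 0.320). Its lowest value in each arm was at 120 h, 10.79 in the control and 11.13 with miR-124.

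Of the tRNA genes, XPOT and GARS1 were called lower. XPOT, which exports tRNA from the nucleus, was nearly constant in the control, from 10.80 to 10.88 over all 7 arrays. Its last 4 miR-124 arrays, from 24 to 120 h, read 10.60, 10.44, 9.80 and 10.43, all below the control range. Its late effect was -0.73 ± 0.14, or 1.65-fold lower (limma adjusted p = 0.00751), and without the 72 h pair -0.45 (adjusted p = 0.0509). A second, dimmer XPOT probe set gave -0.44 (adjusted p = 0.107 over all probe sets).

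GARS1, the glycyl-tRNA synthetase, read 11.01 and 11.10 on the late miR-124 arrays against 11.32 and 11.61 on their controls. Its late effect was -0.41 ± 0.09, or 1.33-fold lower (limma adjusted p = 0.00970). NARS1, the asparaginyl-tRNA synthetase, had the smallest effect of the 8, -0.07 ± 0.09 (adjusted p = 0.596), with arrays from 11.67 to 12.04 with miR-124 and from 11.72 to 11.90 in the control. AARS1 (alanine), IARS1 (isoleucine), EPRS1 (glutamate and proline), SARS1 (serine) and WARS1 (tryptophan) made no late call, with effects from -0.36 for EPRS1 to 0.17 for AARS1.

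For several of these the probe sets or the times differed. SARS1 had a control array of 10.35 at 120 h, above its other control arrays of 9.63 to 9.79, and ratios of 0.17 at 72 h and -0.59 at 120 h. A second SARS1 probe set gave a late effect of 0.31 against -0.21 for the one used. A dimmer probe set each of EPRS1 and WARS1 gave -0.35 and -0.30 and passed the threshold (limma adjusted p = 0.0250 and 0.0463 over all probe sets). WARS1 had ratios of -0.52 at 72 h and 0.26 at 120 h. AARS1 had its largest ratio, 0.58, at 32 h, and a slope with miR-124 of 0.14 ± 0.03 per doubling of time (limma adjusted p = 0.0229).

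The late window differed from the middle window for 9 members. The late minus middle difference was called lower for CTH, ASNS, SLC7A11, SHMT2, PCK2, MTHFD2, PHGDH, ATF4 and GARS1 and higher for none (1.53% of all genes lower, 3.21% higher). It ran from -1.55 ± 0.16 for CTH (limma adjusted p = 0.00471) to -0.49 ± 0.11 for GARS1 (adjusted p = 0.0495). At an unadjusted p under 0.05 were 16 members, and 2559 of all 13128 genes. Without time as a block 2 of the 9 were called, PHGDH and SHMT2. Leaving out any one of 4, 8, 16, 24 or 32 h left 1 to 4 calls, all lower. The shares of all genes were then 0.13% to 0.571% lower and 0.465% to 1.69% higher. Leaving out 120 h gave 15 calls, all lower, when the shares of all genes were 10.2% lower and 7.87% higher.

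The ratio hides what each arm did, so each late array was set against the mean of its own arm at 4 to 32 h (n = 5 arrays). These single arrays have no replicate and were not tested. In the control at 120 h, 26 of 33 members lay above that mean, with a median of 0.29, while at 72 h the median was -0.01. With miR-124 at 72 h, 27 lay below, with a median of -0.30, and at 120 h the median was -0.11. Over all genes tested the 4 medians lay between -0.03 and 0.01.

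The enzymes held the largest of these shifts. In the control at 120 h their median was 0.64, with ASNS at 1.69, CTH at 1.20, PCK2 at 1.08, CBS at 0.92, PHGDH at 0.73 and MTHFD2 at 0.64. With miR-124 at 72 h their median was -0.65, with CTH at -1.59, SHMT2 at -1.07, PYCR1 at -0.90 and PSAT1 at -0.72. Outside the enzymes, SLC7A11 was at -1.17 and XPOT at -0.87 with miR-124 at 72 h, and DDIT4 at 0.90 and CEBPB at 0.81 in the control at 120 h. SLC7A5 went the other way in the control at 120 h, at -0.91.

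Members differed in which arm stood away from its earlier mean. The control array of 120 h was the highest of its arm for 22 of 33 members (27.8% of all genes) and the lowest for 4 (29.5%). The miR-124 array of 72 h was the lowest of its arm for 21 (27.5% of all genes) and the highest for 2 (24%). Of the 18 members called lower late, 8 were more than 0.5 above their earlier mean in the control at 120 h, 12 were more than 0.5 below it with miR-124 at 72 h, and ASNS, MTHFD2 and CTH were both. At 120 h with miR-124 only SLC7A11 of the 18 remained more than 0.5 below, at -0.96. The ratio was deeper at 72 h for 10 of the 18 and at 120 h for 8. The 18 were chosen by the ratios of these same late arrays, so such shifts were in part set by that choice. The same counts over all genes were not made. Across the 33 members, which share the same 14 arrays, the control's shift at 120 h and the miR-124 shift at 72 h had Pearson's r of -0.18 and Spearman's rho of -0.08.

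**Figure D4:**
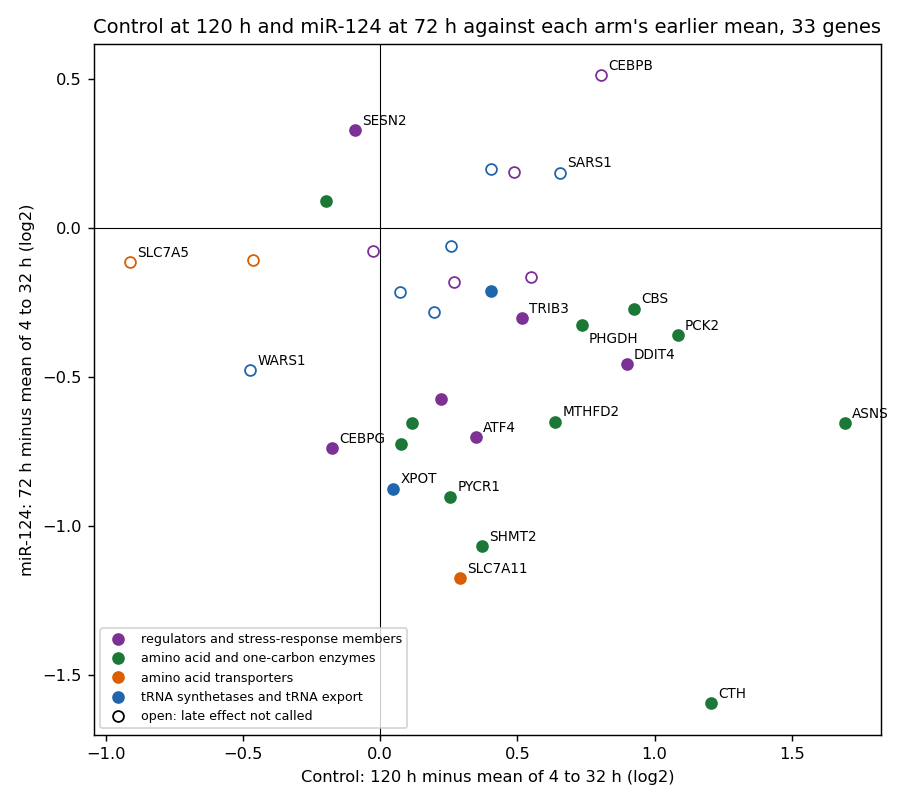
Each of 33 members by its control value at 120 h (horizontal) and its miR-124 value at 72 h (vertical), both as log2 differences from the mean of that arm's 5 arrays at 4 to 32 h, coloured by role and filled where the late effect was called. ASNS lies far right at 1.69 and -0.65, SLC7A11 low at 0.29 and -1.17, and CTH is extreme on both axes at 1.20 and -1.59.

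Slopes with time were also fitted over the whole course. In the control 4 members had a slope called higher and none lower (2.71% and 5.49% of all genes): CEBPB, PHGDH, TRIB3 and DDIT3. With miR-124 CEBPB, AARS1 and DDIT3 were called higher and SLC7A11 and CEBPG lower (13.7% and 8.07% of all genes), with -0.16 ± 0.04 per doubling of time for CEBPG (limma adjusted p = 0.0306). The difference of the slopes was called lower for CTH, SLC7A11, PCK2 and TRIB3 and higher for none (1.67% and 6.92% of all genes), with the largest for CTH at -0.43 ± 0.08 (adjusted p = 0.0210). On a linear time axis, which gives the 120 h array more weight, the control had 3 members lower and 11 higher, where 13.3% and 8.49% of all genes were called. The calls were few and moved with single times, as did those over all genes. Without 120 h 1 control slope was called, higher (1.63% of all genes). With miR-124 6 slopes were then called lower and 4 higher (12.0% and 12.4% of all genes), and the slope difference was called lower for 6 and higher for 1 (7.79% and 10.0%). Without 8 h 1 member was called in each of the 3 fits, where between 0.183% and 6.64% of all genes were called in either direction.

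Upstream of ATF4, the kinases that phosphorylate eIF2 did not move together. Of 6 tested genes of the list of kinases and their regulators, 2 were called higher and 1 lower in the late window, with a list median of -0.20. EIF2AK4, the amino acid sensor GCN2, was called higher in the middle window at 0.83 ± 0.17 (limma adjusted p = 0.0305) and in the late window at 1.63 ± 0.21 (adjusted p = 0.00148), with ratios of 2.09 at 72 h and 1.17 at 120 h. EIF2AK2, the double-stranded RNA sensor PKR, had a late effect of 0.50 ± 0.11 (adjusted p = 0.0138). EIF2AK3, the endoplasmic reticulum sensor PERK, was called lower in the middle window at -0.58 ± 0.11 (adjusted p = 0.0239) and late at -0.49 ± 0.14 (adjusted p = 0.0311), with ratios of -0.74 at 72 h and -0.24 at 120 h. Phosphorylation itself was not measured. Of 13 subunits of eIF2, eIF2B and the eIF2 phosphatase, only EIF2B3 was called in the late window, at -0.45 ± 0.12 (adjusted p = 0.0261), with ratios of -0.69 and -0.20, and none in the middle window.

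Other reported ATF4 targets outside the 36 had 9 called lower and 3 higher of 28 tested in the late window, with a median of -0.19, and 2 lower and 1 higher in the middle window. Over all genes 12.6% were called lower and 16.5% higher late, and 4.36% and 3.47% in the middle window, which is the background for each of these lists. The largest were EIF4EBP1, a brake on translation, at -0.98 ± 0.12 (limma adjusted p = 0.000941), SLC7A1, an arginine transporter, at -0.78 ± 0.08 (adjusted p = 0.000685), and SLC1A5, a glutamine transporter, at -0.74 ± 0.12 (adjusted p = 0.00343). Both of these transporters had ratios below -0.65 at 72 and at 120 h.

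Folate, glycine and glutathione genes outside the 36 had 5 called lower and 2 higher of 13 tested, with a median of -0.20, and 2 lower and none higher in the middle window. GCSH, of the glycine cleavage system, had the largest effect at -1.49 ± 0.39 (limma adjusted p = 0.0253), followed by the folate enzyme MTHFD1 at -0.99 ± 0.29 (adjusted p = 0.0371) and methionine synthase MTR at -0.68 ± 0.16 (adjusted p = 0.0148). The first 2 rested mainly on 72 h: the ratios at 72 and 120 h were -2.43 and -0.55 for GCSH, -1.72 and -0.27 for MTHFD1, and -0.79 and -0.56 for MTR.

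The remaining tRNA synthetases had late calls in both of their lists, where 12.6% of all genes were called lower and 16.5% higher. Of 10 cytosolic ones outside the 36, LARS1 and TARS1 were called lower late, at -0.48 ± 0.09 and -0.32 ± 0.09 (limma adjusted p = 0.00659 and 0.0374), and both are also on the list of other ATF4 targets. The list median was -0.24, and none was called in the middle window. Of 15 mitochondrial ones, 2 were called lower and 2 higher late, with a median of 0.02, shares near those over all genes, and none in the middle window. EARS2 was at -0.86 ± 0.19, NARS2 at -0.68 ± 0.11 and VARS2 at 0.33 ± 0.10 (adjusted p = 0.0117, 0.00349 and 0.0450). The times differed for EARS2, with ratios of -1.29 at 72 h and -0.43 at 120 h, for VARS2, with 0.19 and 0.46, and for TARS1, with -0.46 and -0.18.

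The next list held chaperones of the endoplasmic reticulum, other genes that answer to ATF6 and XBP1 and not mainly to ATF4, and both factors. Of 16 tested, 5 were called lower and 2 higher in the late window, with a median of -0.31, and 1 each way in the middle window. The 2 called higher late were SEL1L at 0.48 ± 0.09 and the factor ATF6 at 0.33 ± 0.10 (limma adjusted p = 0.00715 and 0.0400). HSP90B1, PDIA4 and the factor XBP1 itself were at -0.90 ± 0.15, -0.83 ± 0.13 and -0.81 ± 0.19 (limma adjusted p = 0.00383, 0.00277 and 0.0149). XBP1 had ratios of -1.27 at 72 h and -0.36 at 120 h. Their timing differed from that of the enzymes: over the 16 the ratios had medians of -0.72 (72 h) and 0.03 (120 h), against -0.72 and -0.75 for the 11 enzymes. That difference in timing was not tested.

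**Figure D5:**
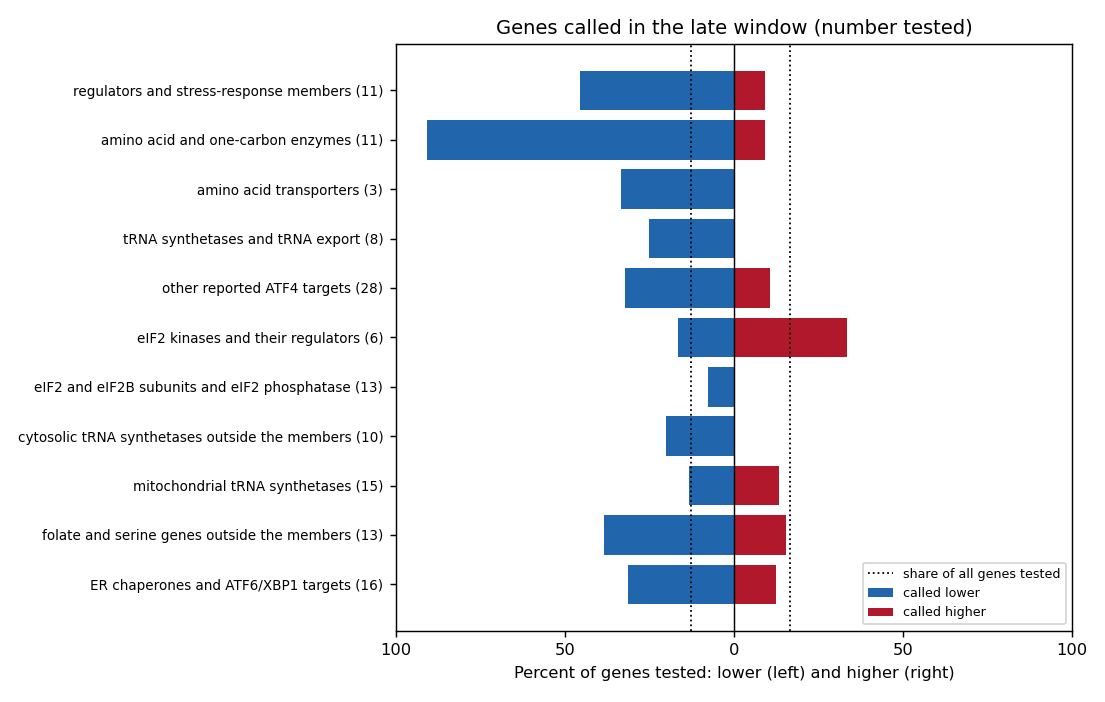
Percent of tested genes called lower (blue, left) and higher (red, right) in the late window for the 4 roles and 7 related lists, with the number tested in parentheses and dotted lines at the shares over all genes tested, 12.6% lower and 16.5% higher. The enzymes have the longest blue bar, 10 of 11.

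At single times without a test, 4 members were at least 2-fold lower with miR-124 at 72 h (SHMT2, CTH, PYCR1 and XPOT) and 6 at 120 h (DDIT4, NUPR1, ASNS, CTH, PCK2 and SLC7A11), against 5.93% and 1.17% of all genes. None was 2-fold higher at either time (3.85% and 2.31% of all genes). The late call rests on both last times and on the spread taken from all 7. In a fit of the late window's 4 arrays alone, CTH, SHMT2, PCK2 and SLC7A11 were called lower and none higher, where 1.2% of all genes were called lower and 2.99% higher.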

How the data were processed

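The deposited table gave log2 expression values per probe set for 14 arrays. Per the submitters' processing notes the authors used RMA, whose version is not given in the sources used here. Its log2 scale was read from the values, which ran from 2.93 to 14.4. Of 54675 probe sets, 62 were controls, 41091 carried 1 gene symbol, 1801 several and 11721 none listed. Each gene was taken at its probe set with the highest mean, and genes above the median of all probe sets were tested in R 4.3.3 with limma 3.58.1 (two-sided, Benjamini-Hochberg over 13128 genes). Time point was a block in the window and overall fits, because the labels match the arrays of a time; their deviations correlated at 0.21 to 0.48. Slopes used log2 time. The scripts were tested on simulated data. Arrays have no depth, and their number limits the precision.

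The members and gene lists were chosen with earlier results of these data known. Members given in full were those called in the late or middle window or in the slope difference, plus ATF4 and, in each role, the smallest late effect. From other lists up to 3 called genes with the largest late effect were named, and also SEL1L and ATF6. Alternatives were other filters, averaged probe sets, centred arrays, an intensity trend, a 1.5-fold minimum, no block, a window's own arrays, linear time and each time left out. Promoter windows came from RefSeq (GRCh38.p14). Figures used matplotlib 3.10.9 in Python 3.11.15.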

Additional observations from a re-analysis of the deposited data

Results flagged for a closer look

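In 16 of 68 sets of 7 arrays (a member in 1 arm), 1 array stood apart from its arm by more than Dixon's critical limit on the gap as a share of the arm's range. For values that differ only at random that is about 1 set in 20, which arrays of a time course need not follow. The share over all genes was not counted. Over all genes the control array of 120 h was the highest of its arm for 27.8% and the lowest for 29.5%. The miR-124 array of 72 h was the lowest for 27.5%. The 16 were 11 sets of the control and 5 of miR-124, and 8 were high control values at 120 h: ASNS at 11.03, CTH at 9.51, PCK2 at 9.89, DDIT4 at 10.24, SHMT2 at 11.46, MTHFD2 at 12.23, GARS1 at 11.61 and SARS1 at 10.35. WARS1 was low in that same array at 8.60. With miR-124 the array of 72 h was the low one for ATF4 at 10.86, TRIB3 at 10.32, ASNS at 8.78, PSAT1 at 11.23 and XPOT at 9.80. The other 2 were CEBPG, high in the control at 4 h with 9.27, and SESN2, low in the control at 72 h with 8.34.

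The effect of miR-124 differed between the late and the middle window for 9 members, by limma's test of the difference (1 pair per time, adjusted p over all genes). The late minus middle difference was -1.55 for CTH, -1.21 for ASNS, -0.97 for SLC7A11, -0.92 for SHMT2, -0.84 for PCK2, -0.77 for MTHFD2, -0.72 for PHGDH, -0.52 for ATF4 and -0.49 for GARS1, with adjusted p from 0.00471 to 0.0495. The slope with time differed between the arms for 4: CTH by -0.43, SLC7A11 by -0.29, PCK2 by -0.23 and TRIB3 by -0.15 per doubling of time, with adjusted p from 0.0152 to 0.0497.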

How the results depend on the processing

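With a minimum change of 1.5-fold, limma called 1 member in the late window and 0 in the middle window, the late minus middle difference, both slopes and their difference. Of all genes 0.617% were then called lower and 1.66% higher late, and at most 0.137% in either direction in the others. Without time point as a replicate block, that is without the pairing, the middle count went from 1 to 0 (3.73% of all genes lower, 2.86% higher). Late minus middle went from 9 to 2 (1.10% and 2.6%) and the slope difference from 4 to 1 (0.571% and 4.69%). The late count became 17 (12.7% and 16.2%), with ASNS (limma adjusted p = 0.0581), MTHFD2 and ALDH18A1 lost. A window's own arrays gave 2 members lower and 2 higher in the middle window (8.17% and 8.30% of all genes). In the late window they gave 4 lower and none higher (1.2% and 2.99%). Linear time gave 14 control slopes (13.3% and 8.49%) and 1 miR-124 slope (1.55% and 6.99%), and averaged probe sets 3 miR-124 slopes (8.85% and 14.5%). Leaving out each time in turn gave 0 to 1 calls over all 7 times, 0 in the early window, 0 to 3 in the middle, 17 to 20 in the late window, 1 to 15 for late minus middle, 1 to 5 control slopes, 1 to 10 miR-124 slopes and 1 to 7 slope differences. The shares over all genes moved too. Called lower were 0% to 8.20% in the middle window, 1.16% to 5.91% for control slopes, 1.32% to 12.0% for miR-124 slopes and 0.183% to 7.79% for slope differences. Called higher were 0% to 8.54%, 0.587% to 2.59%, 6.64% to 12.4% and 1.52% to 10.0%. In the late window 8.68% to 19.8% of all genes were called lower and 12.8% to 17.4% higher. For late minus middle these shares were 0.13% to 10.2% and 0.465% to 7.87%, and over all 7 times 0% to 4.42% and 0% to 2.99%. The cause of these moves was not tested, beyond the fewer arrays.

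Late effects that changed sign belonged to members not called. With averaged probe sets SARS1 was 0.0489. With a time left out the late effect ran from -0.46 to 0.28 for ATF3, from -0.0651 to 0.42 for CEBPB, from -1.11 to 0.34 for NUPR1, from -0.0373 to 0.16 for SLC3A2, from -0.59 to 0.17 for SARS1 and from -0.52 to 0.26 for WARS1. Of these, NUPR1 and SARS1 were called lower without 72 h, and without 120 h WARS1 was called lower and CEBPB higher. Middle effects that changed sign were also not called in the middle window. With averaged probe sets ATF3 was -0.0387, CEBPG -0.0871, MTHFD2 -0.0155 and WARS1 -0.0052, and with centred arrays IARS1 was -0.0113. With a time left out the middle effect ran from -0.0746 to 0.22 for ATF3, -0.0594 to 0.10 for CEBPG, -0.0137 to 0.0659 for PSAT1, -0.057 to 0.0191 for PHGDH, -0.12 to 0.11 for CBS, -0.0246 to 0.0895 for WARS1, -0.23 to 0.0434 for EPRS1 and -0.0279 to 0.0428 for IARS1. With 1 array per arm at each time, no replicate spread within a time exists in these data.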
